A study of Mus musculus with 2 samples.

Results

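Retinoid metabolism was examined through 8 genes, Rbp4, Lrat, Retsat, Adh1, Rdh16, Dhrs3, Aldh1a1 and Cyp26a1, out of the 31053 genes counted. They were listed by symbol for their known place in the handling of vitamin A; the list was drawn up with earlier results of these data known. The study profiled single cells from the livers of C57BL/6 mice fed either chow or a NASH diet (a diet rich in fructose, fat and cholesterol, given to bring on non-alcoholic steatohepatitis) for 6.5 weeks, with 1 library for each diet. Cells were freed with collagenase and recovered at several Percoll densities, and the libraries were made with a 10X 3′ version 3 kit. The labels do not state how many mice went into either library. With 1 library per diet there is no replicate, so no test between diets was possible, and every interval below is a 95% interval that covers counting error only.

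Vitamin A reaches the liver as retinyl ester in lipoprotein remnants. Hepatocytes hydrolyse it, bind retinol to the plasma carrier encoded by Rbp4 and secrete the complex, while hepatic stellate cells take up retinol and store it as ester through the acyltransferase encoded by Lrat. Retinol is reversibly oxidised to retinal by alcohol dehydrogenases (Adh1) and short-chain dehydrogenases (Rdh16), with Dhrs3 known for the reverse reaction, and retinal is oxidised irreversibly to retinoic acid by retinal dehydrogenases (Aldh1a1). Retsat saturates retinol, and Cyp26a1 hydroxylates retinoic acid for removal and is itself a classical target of the retinoic acid receptor.

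After filtering, 1627 of 7359 chow barcodes and 957 of 5881 NASH-diet barcodes passed a hepatocyte gate built from 6 secreted-protein genes (Alb, Apoa1, Apoa2, Apoc3, Apoh and Ambp), none of them among the 8. These hepatocytes held 42854792 and 20847523 UMIs (unique molecular identifiers, each counting 1 captured RNA molecule), with medians of 26533 and 20864 UMIs per cell. The libraries differed in cell state: the median mitochondrial share of hepatocyte UMIs was 18.4% on chow and 23.6% on the NASH diet, and 8 acute-phase genes summed to 65371 CPM (counts per 1000000 UMIs) on chow and 7815 on the NASH diet, each of the 8 at least 2-fold lower on the NASH diet. A set of 7 dissociation stress genes summed to 601 and 352 CPM. Cells with the mesenchymal markers Dcn and Col3a1 numbered 15 on chow and 18 on the NASH diet. The libraries shared 69 barcode sequences, of which 0 were among the gated cells compared.

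All 8 genes are annotated as protein coding (GENCODE M21, mouse build GRCm38, the same assembly as mm10). Retsat lies at chr6:72598475-72608425, Rdh16 at chr10:127801152-127846565, Dhrs3 at chr4:144892827-144928209 and Aldh1a1 at chr19:20492715-20643465. Cyp26a1 (chr19:37697798-37701536, plus strand) and Rbp4 (chr19:38116629-38125281, minus strand) lie on the same chromosome, and Lrat (chr3:82892579-82903973, minus strand) and Adh1 (chr3:138260991-138290698, plus strand) share another.

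Promoter sequence is shown for Cyp26a1, the classical retinoic acid target, and for Retsat and Rdh16, the 2 genes that differed most between diets in hepatocytes. The windows are from RefSeq (GRCm38.p6, plus strand in all 3) and stop before the first base of the gene in either annotation. They cover chr19:37697558-37697797 for Cyp26a1, chr6:72598352-72598474 for Retsat and chr10:127800903-127801151 for Rdh16. Capitals mark hexamers that nuclear receptors such as the retinoic acid receptor can bind. These are AGGTCA as the consensus, AGTTCA as the form common in retinoic acid response elements, and GGTTCA as well as GGGTCA as further variants, all searched on both strands.
Cyp26a1: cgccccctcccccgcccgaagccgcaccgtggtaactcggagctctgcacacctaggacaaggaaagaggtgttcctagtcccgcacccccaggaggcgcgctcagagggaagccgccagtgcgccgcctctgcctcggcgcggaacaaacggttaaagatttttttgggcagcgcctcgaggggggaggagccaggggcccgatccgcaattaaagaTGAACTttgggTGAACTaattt
Retsat: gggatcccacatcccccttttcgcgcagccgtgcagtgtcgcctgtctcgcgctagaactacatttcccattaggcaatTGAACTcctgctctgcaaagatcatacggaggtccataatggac
Rdh16: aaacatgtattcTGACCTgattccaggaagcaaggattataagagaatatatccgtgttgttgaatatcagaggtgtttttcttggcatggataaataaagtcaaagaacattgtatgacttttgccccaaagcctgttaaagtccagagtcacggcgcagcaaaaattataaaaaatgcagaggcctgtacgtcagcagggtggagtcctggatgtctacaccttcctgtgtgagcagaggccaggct
In Cyp26a1, AGTTCA occurred 2 times on the minus strand, starting 32 and 21 bases before the RefSeq start (positions -32 and -21), in the same orientation with 5 bases between them. Such direct repeats with 1, 2 or 5 bases between the hexamers were present in 193 of the 32851 RefSeq promoter windows searched (0.588%). Retsat held 1 AGTTCA on the minus strand at position -171, and Rdh16 held 1 AGGTCA on the minus strand at position -238. Any of the 4 hexamers was found in 43.7% of all windows, so a single match sets neither of them apart.

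In hepatocytes, Retsat and Rdh16 were the members that differed most between the diets, and both were higher on the NASH diet. Rbp4, Adh1 and Aldh1a1 were higher by smaller factors, Dhrs3 was slightly lower, Cyp26a1 was barely detected and Lrat was almost absent. Genes entered the comparison if their mean over the 2 libraries was at least 5 CPM, which 7824 genes and 6 members did, all but Lrat and Cyp26a1. Of these 6, 2 were at least 2-fold higher on the NASH diet and 0 at least 2-fold lower, where 3.46% of all genes tested were at least 2-fold higher and 2.44% at least 2-fold lower. The median of all genes tested was shifted by 0.13 on the log2 scale toward the NASH diet, and centring on it moved the share of 2-fold differences that were higher from 58.7% to 44.9% but left the same count of 2 members.

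**Figure D1:**
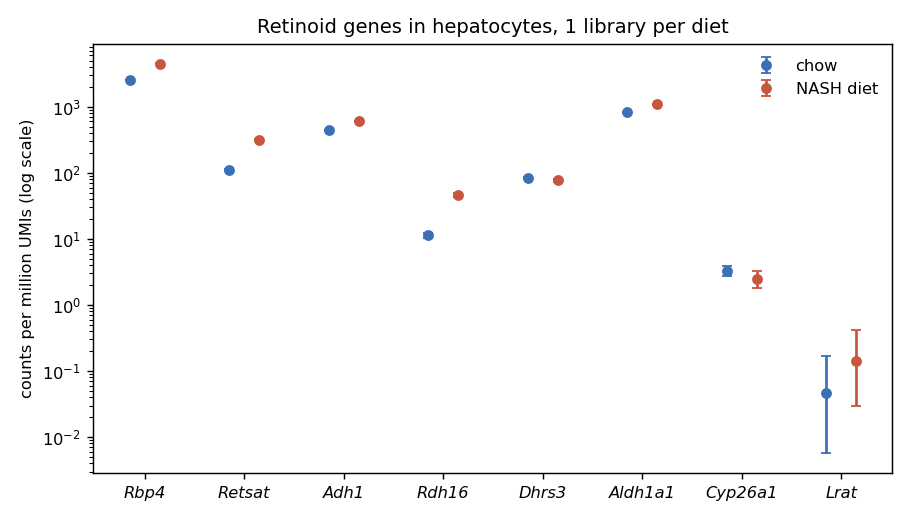
Level of each of the 8 genes in hepatocytes, as CPM on a log axis, for the chow and NASH-diet libraries; points are sums over 1627 and 957 cells and bars are exact Poisson 95% intervals. Retsat and Rdh16 show the widest gaps between diets among the genes that are readily detected, and Lrat sits below 1 CPM in both.

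Among the genes of transport and storage, Rbp4, the plasma retinol carrier, stood at 2521 CPM (interval 2506 to 2536) on chow and 4499 CPM (4470 to 4527) on the NASH diet, a log2 ratio of 0.84 (0.82 to 0.85) or 1.78-fold. It was detected in every hepatocyte of both libraries. The median cell had 22.9 UMIs of Rbp4 per 10000 on chow and 39.8 on the NASH diet, but single cells overlapped, with an upper quartile of 28.3 on chow and a lower quartile of 33.2 and a 10th percentile of 28.0 on the NASH diet. Rbp4 protein in plasma is known to fall during an acute-phase response, and the acute-phase genes were the ones far higher on chow here; their part in the Rbp4 difference was not tested.

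Retsat, the retinol saturase, was at 109 CPM (106 to 113) on chow and 315 CPM (307 to 322) on the NASH diet; the log2 ratio was 1.52 (1.47 to 1.58) or 2.88-fold. The median cell had 0.857 Retsat UMIs per 10000 on chow and 2.78 on the NASH diet, above the chow upper quartile of 1.57. With every cell thinned to 5000 UMIs, so that depth was equal, 38.0% of chow and 68.7% of NASH-diet hepatocytes had a Retsat UMI (81.6% and 91.3% before thinning). Retsat moved with the mitochondrial share of the cells. In hepatocytes under 10% mitochondrial UMIs (62 chow and 78 NASH-diet cells) it was at 17.3 and 25.4 CPM, with an interval of the log2 ratio from -0.42 to 1.61, and with the mitochondrial limit lowered from 30% to 20% its log2 ratio was 0.94, short of 2-fold, while that of Rbp4 was 1.20. Within the bands from 10% to 20% and from 20% to 30% the Retsat ratios were 1.22 and 1.82.

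Lrat, the storage enzyme, gave 2 UMIs in all chow hepatocytes and 3 in all NASH-diet hepatocytes. These counts are too few for a ratio between diets, and Lrat is taken up again below in the mesenchymal-marker cells.

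Of the dehydrogenases acting on retinol, Rdh16 was at 11.4 CPM (10.4 to 12.5) on chow and 46.1 CPM (43.2 to 49.1) on the NASH diet; the log2 ratio was 2.01 (1.86 to 2.17) or 4.04-fold. An Rdh16 UMI was present in 356 chow hepatocytes, which held 489 of them with at most 5 in a cell, and in 436 NASH-diet hepatocytes, which held 961 with at most 13 in a cell. More cells thus had a UMI (21.9% on chow and 45.6% on the NASH diet, or 5.04% and 18.1% after thinning to 5000 UMIs), and those cells also held more UMIs each. Rdh16 belongs to a cluster of near-identical short-chain dehydrogenase genes on chromosome 10, among them Rdh7 and Rdh16f2, and reads could be split among these. Rdh7 and Rdh16f2 did not share its ratio, at 527 and 660 CPM (log2 0.33) and at 82.7 and 43.1 CPM (log2 -0.94). The related Rdh9, under the filter of 5 CPM, was higher on the NASH diet too. It gave 59 and 71 UMIs, or 1.38 and 3.41 CPM (log2 1.31, 0.79 to 1.83). How far reads were shared among these genes was not tested.

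Adh1, the cytosolic alcohol dehydrogenase that also accepts retinol, was at 442 CPM (436 to 448) on chow and 609 CPM (598 to 620) on the NASH diet; the log2 ratio was 0.46 (0.43 to 0.50). Aldh1a1, which makes retinoic acid from retinal, was at 825 CPM (816 to 834) and 1085 CPM (1071 to 1099); the log2 ratio was 0.39 (0.37 to 0.42). Both ratios depended on the cells compared. In hepatocytes of 10% to 20% mitochondrial UMIs they were 0.90 for Adh1 and 0.91 for Aldh1a1, in those of 20% to 30% they were 0.18 and 0.10, and under 10% they were -0.03 and -0.32. Aldh1a7, the closest relative of Aldh1a1, with which reads may be shared, was at 179 CPM on chow and 144 CPM on the NASH diet (log2 -0.31).

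Dhrs3, the retinal reductase, was at 84.0 CPM (81.3 to 86.8) on chow and 76.9 CPM (73.2 to 80.8) on the NASH diet; the log2 ratio was -0.13 (-0.21 to -0.04). The shift of all genes is in the other direction. Measured from that shift, Dhrs3 was at -0.26, and 23.0% of genes tested had a lower ratio. Cyp26a1, which clears retinoic acid, gave 140 UMIs on chow and 51 on the NASH diet, or 3.27 and 2.45 CPM, and the interval of its log2 ratio (-0.91 to 0.05) includes 0. A Cyp26a1 UMI was present in 7.07% of chow and 4.60% of NASH-diet hepatocytes, and after thinning in 1.84% and 1.57%.

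The 3 largest ratios were present at every depth of hepatocyte. Split into cells of 5000 to 10000, 10000 to 20000, 20000 to 40000, and 40000 or more UMIs, the log2 ratio of Retsat was 1.25, 1.75, 1.47 and 1.33, that of Rdh16 was 1.74, 1.89, 2.07 and 2.48, and that of Rbp4 was 0.81, 0.82, 0.86 and 1.08. The genes lower on the NASH diet did not keep their sign at every depth: at 40000 UMIs or more Dhrs3 was at 0.26 (-0.03 to 0.55) and Cyp26a1, with 17 and 7 UMIs, at 0.40 (-1.11 to 1.75). In droplets under 5000 UMIs that still had at least 3% hepatocyte marker UMIs (1611 on chow, with a median of 660 UMIs, and 391 on the NASH diet, with a median of 1180), the ratios were smaller, at 0.78 for Retsat, 1.26 for Rdh16 and 0.32 for Rbp4. In the shallowest of them, from 500 to 1000 UMIs, Rbp4 was lower on the NASH diet, with a log2 ratio of -0.33 (-0.47 to -0.18).

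Hepatocytes were next ordered from the portal to the central end of the lobule. A score per cell, from 6 pericentral genes (Cyp2e1, Cyp1a2, Oat, Rgn, Gulo and Lect2) against 7 periportal genes (Cyp2f2, Hsd17b13, Ass1, Pck1, Cps1, Etnppl and Sult5a1), split each library into 3 zones of equal cell number. Genes held out of the score followed it: Glul, the glutamine synthetase of the cells next to the central vein, was at 514, 40.0 and 30.5 CPM in the pericentral, middle and periportal zones on chow and at 2329, 27.7 and 19.0 CPM on the NASH diet, and Sds, a periportal serine dehydratase, was at 29.5, 220 and 299 CPM on chow. On the NASH diet Sds was highest in the middle zone (65.5, 577 and 406 CPM). The border between the middle and periportal zones is weak, with 495 chow and 262 NASH-diet cells within 0.2 score units of it, so the pericentral zone is the one set apart.

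The 8 genes did not share a zone. Retsat was highest periportally in both libraries, and Rbp4, Adh1, Rdh16, Dhrs3, Aldh1a1 and Cyp26a1 were highest pericentrally in both. Of the 6 members tested, 2 (Aldh1a1 and Rdh16) were at least 2-fold higher in the pericentral than in the periportal zone in each library, where 2.09% of genes were so on chow and 4.41% on the NASH diet. In the periportal direction 0 members reached 2-fold, where 1.40% of genes did on chow and 1.58% on the NASH diet.

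**Figure D2:**
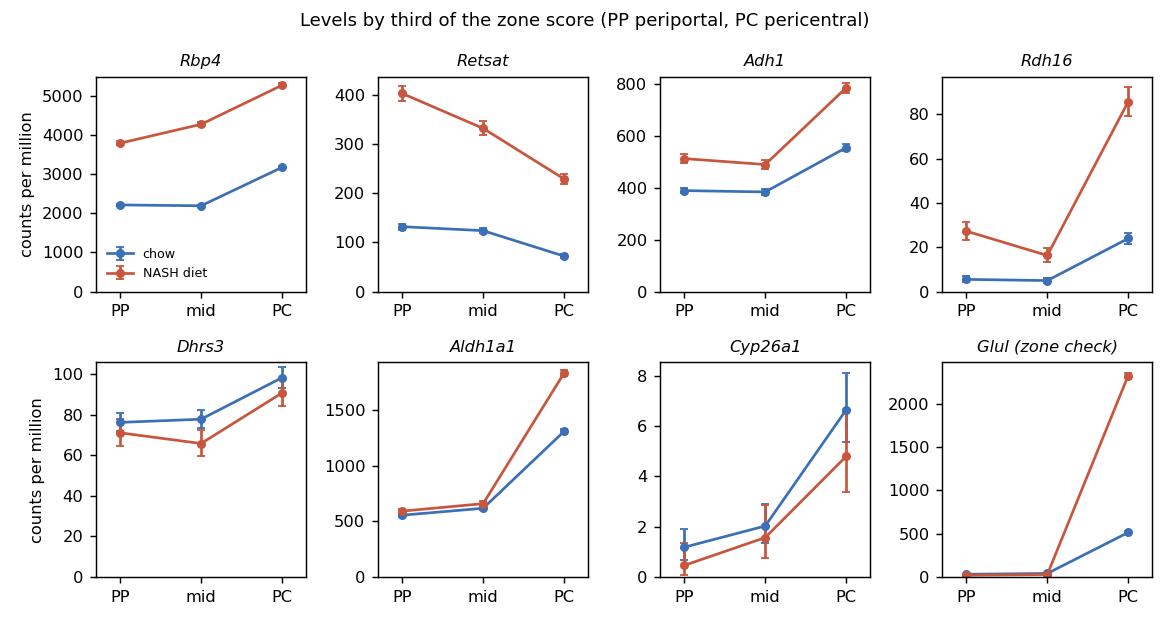
Level of 7 of the genes, and of Glul as a check of the zones, in the periportal (PP), middle (mid) and pericentral (PC) zones of each library, in CPM on linear axes from 0, with exact Poisson 95% intervals. Retsat falls from the periportal to the pericentral zone in both libraries, and the other 6 members have their highest value in the pericentral zone.

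Retsat was at 72.0 CPM in the pericentral, 124 in the middle and 132 in the periportal zone on chow. On the NASH diet the same zones had 229, 332 and 403 CPM. The lowest NASH-diet zone therefore lay above the highest chow zone, and the slope was alike: the log2 ratio of pericentral to periportal was -0.87 (-0.98 to -0.76) on chow and -0.81 (-0.90 to -0.73) on the NASH diet.

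Rdh16 had the opposite slope. It was at 24.0, 4.96 and 5.49 CPM in the pericentral, middle and periportal zones on chow and at 85.6, 16.3 and 27.3 CPM on the NASH diet, a pericentral to periportal log2 ratio of 2.13 (1.77 to 2.50) and 1.65 (1.41 to 1.90). Aldh1a1 was at 1309, 618 and 555 CPM on chow and 1833, 659 and 592 CPM on the NASH diet, with ratios of 1.24 (1.20 to 1.28) and 1.63 (1.58 to 1.68). Its diet difference was found mainly in the pericentral zone, where the log2 ratio between diets was 0.49 (0.45 to 0.52), against 0.09 in each of the other two (0.04 to 0.15 in the middle zone). The zones were cut by rank within each library, and the median score of the pericentral zone was 0.73 on chow and 1.33 on the NASH diet.

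The remaining pericentral slopes were shallower or rested on few counts. Rbp4 had a pericentral to periportal log2 ratio of 0.52 on chow and 0.47 on the NASH diet, Adh1 of 0.51 and 0.62, and Dhrs3 of 0.37 and 0.35. Cyp26a1 gave 94, 29 and 17 UMIs in the pericentral, middle and periportal zones on chow and 38, 10 and 3 on the NASH diet, which is 6.64, 2.03 and 1.18 CPM and 4.79, 1.57 and 0.459 CPM. Its ratio was 2.49 (1.74 to 3.33) on chow and, with only 3 UMIs at the portal end, 3.38 (1.73 to 5.72) on the NASH diet.

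Within each zone the same 2 members, Retsat and Rdh16, were at least 2-fold higher on the NASH diet and 0 members were at least 2-fold lower. The background was 4.07% of genes higher and 2.67% lower in the pericentral zone, 4.13% and 3.15% in the middle zone, and 2.75% and 3.15% in the periportal zone. The log2 ratio between diets in the pericentral, middle and periportal zones was 1.67, 1.42 and 1.61 for Retsat and 1.84, 1.72 and 2.31 for Rdh16. For Rbp4 it was 0.73, 0.96 and 0.78, and for Adh1 0.50, 0.35 and 0.40. Dhrs3 was at -0.12, -0.24 and -0.10, with an interval that excludes 0 in the middle zone alone (-0.41 to -0.08).

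The hepatocyte gate itself thinned the pericentral end. The 6 gate genes made up a median of 3.82% of UMIs in the pericentral zone of the chow library and 5.84% in the periportal zone, and 4.50% and 8.22% on the NASH diet. Of the 369 chow and 115 NASH-diet droplets with 1% to 3% of gate-gene UMIs that were left out, 93.0% and 81.7% had a score in the pericentral range. In those droplets Aldh1a1 was at 1481 and 1959 CPM, Rdh16 at 29.6 and 107 CPM, Dhrs3 at 99.3 and 101 CPM and Retsat at 51.3 and 153 CPM, each past its pericentral value in the direction of its slope. Rbp4 (2974 and 3812 CPM), Adh1 (520 and 629 CPM) and Cyp26a1 (5.59 and 4.04 CPM) were below their pericentral values, and Rbp4 on the NASH diet was close to its periportal value of 3790 CPM. For Dhrs3 and Cyp26a1 in both libraries, and for Rdh16 on chow, the intervals of these droplets and of the pericentral zone overlapped. Those differences are therefore not resolved. With the gate at 1% the Retsat ratio on chow was -1.26, past 2-fold. With the gate at 5%, which kept 84 of the 543 pericentral chow cells, it was -0.05 on chow and -0.56 on the NASH diet. At that gate 0 of the members tested reached 2-fold in either library.

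Each library was also cut into 6 bins of equal cell number along the score, and within a library Retsat ran against the other members tested. Within the 6 chow bins its Pearson correlations with them, on log2(CPM + 1), were from -0.98 to -0.88, and within the 6 NASH-diet bins from -0.98 to -0.67; all pairs without Retsat were positive in both. Over the 12 bins of both libraries, which take in the difference between diets, Retsat was at r = 0.51 with Rbp4, 0.31 with Rdh16, 0.18 with Adh1, -0.29 with Aldh1a1 and -0.68 with Dhrs3. These bins share the cells, depth and library, so the values are a description. Among the genes most like Retsat over the 12 bins were St3gal5 (r = 0.98) and Gpc1. Rbp4 was most like Phyh (r = 0.99), Apoa2 (one of the gate genes) and Coa6, Aldh1a1 most like Gstm2 (r = 0.99), Aqp9 and Oat (one of the score genes), and Adh1 most like Cyp2d9 (r = 0.98), Gstm1 and Chp1. Rdh16 was most like Chp1 (r = 0.98), Cdk6 and Ghr, Dhrs3 most like Slc29a1 (r = 0.96), Grina and Mtus1, and Cyp26a1 most like Mup11 (r = 0.97), Cyp2c67 and Mup18. The Cyp26a1 list rests on few counts, with 140 UMIs over all chow bins and 51 over all NASH-diet bins.

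The wider pathway was read from 65 other genes of retinoid transport, oxidation, clearance and response, of which 38 passed the same filter in hepatocytes. Of the 38, 25 were higher on the NASH diet, 5 at least 2-fold higher and 1 at least 2-fold lower, and their median log2 ratio was 0.16 against 0.13 for all genes tested. Of all genes tested, 65.4% were higher, 3.46% at least 2-fold higher and 2.44% at least 2-fold lower, so the share of higher genes was that of the background, and the counts by role are too small to be read against it. By role, 3 of 10 transport and storage genes were at least 2-fold higher and 0 lower, 0 of 16 oxidoreductases were higher and 1 lower, 1 of 8 receptors and co-factors and 1 of 4 retinoic acid responsive genes were higher, and 0 of the 5 clearance genes passed the filter.

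**Figure D3:**
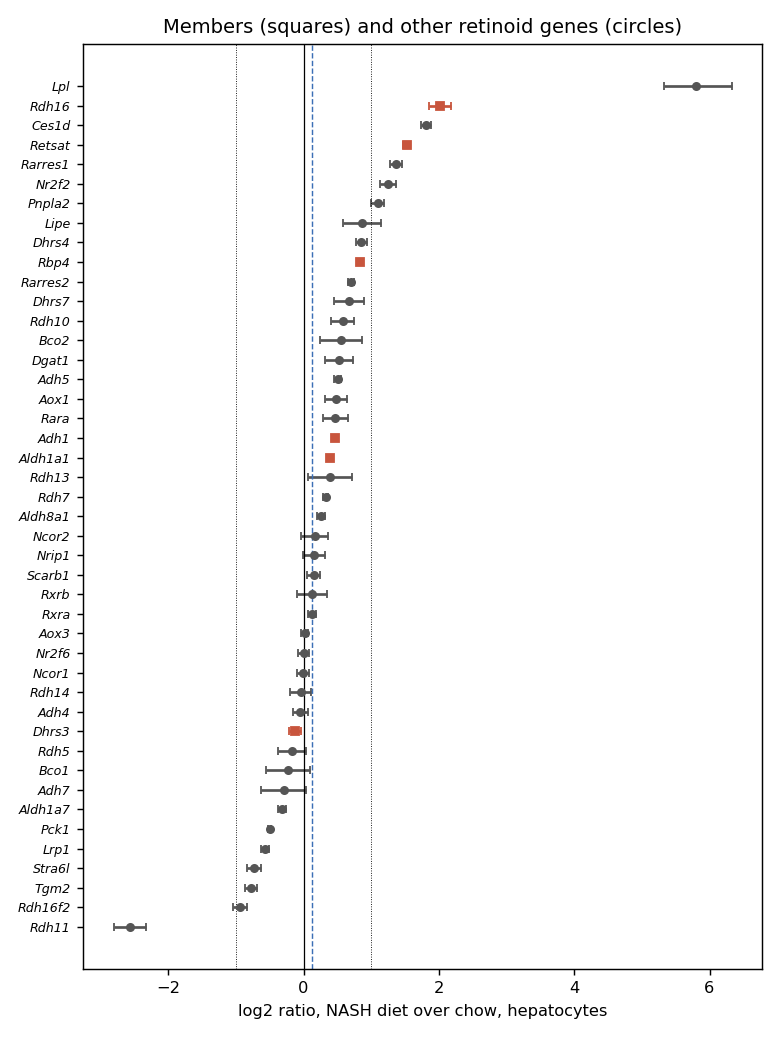
Log2 ratio of the NASH-diet to the chow library in hepatocytes for the 6 members tested (squares) and 38 other retinoid genes (circles), with 95% intervals for counting error; dotted lines mark 2-fold and the dashed line marks the median of all genes tested, 0.13. Lpl stands far to the right at 5.80, and Rdh11 is the one point below -1, at -2.56.

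The widest difference was Lpl, the lipase that releases fatty acids and retinyl ester from circulating lipoproteins, with 36 UMIs in chow and 978 in NASH-diet hepatocytes (0.840 and 46.9 CPM, log2 5.80, 5.32 to 6.33). The other transport and storage genes at least 2-fold higher were Ces1d, a carboxylesterase, at 52.8 and 186 CPM (log2 1.81), and Pnpla2, a triglyceride lipase, at 38.3 and 81.8 CPM (1.10). Lipe, the hormone-sensitive lipase, at 5.30 and 9.64 CPM (0.86), was short of 2-fold. Rarres1, named for its response to retinoic acid receptor ligands, was at 45.6 and 117 CPM (1.36), and Nr2f2, an orphan nuclear receptor, at 24.3 and 57.9 CPM (1.25). On the lower side, Rdh11, a microsomal retinal reductase, was at 46.8 CPM on chow and 7.91 CPM on the NASH diet (-2.56, -2.80 to -2.33). Short of 2-fold, Rdh16f2 was at -0.94, Tgm2, a transglutaminase induced by retinoic acid, at -0.78, Stra6l, a receptor for the Rbp4 complex, at -0.73, Lrp1, a receptor for lipoprotein remnants, at -0.57, and Pck1, the gluconeogenic phosphoenolpyruvate carboxykinase, at -0.50.

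Each member was then compared across cell classes set by marker genes. Cells that passed the mesenchymal gate as well (4 Kupffer cells on chow and 3 endothelial cells on the NASH diet) were counted as mesenchymal-marker cells alone. Rbp4, Retsat, Adh1, Rdh16, Aldh1a1 and Cyp26a1 had their highest level in hepatocytes in both libraries among hepatocytes, mesenchymal-marker, endothelial, Kupffer and other leukocyte cells. For Cyp26a1 the other classes had 0 UMIs, in totals too small to show a level of 3.27 CPM, and Rdh16 on chow was likewise below what the smaller classes could show. Lrat was highest in mesenchymal-marker cells, and Dhrs3 in endothelial cells and mesenchymal-marker cells. Of the 7 members tested, 2 (Lrat and Dhrs3) were at least 2-fold higher in mesenchymal-marker cells than in hepatocytes in each library, where 58.1% of genes on chow and 56.6% on the NASH diet were. Nearly all Dhrs3 UMIs of the mesenchymal-marker cells were in cells that also carried endothelial markers, as given below. Those cells also held most of the Lrat UMIs and most of all UMIs of the class. In the other direction, 4 members on chow and 5 on the NASH diet were at least 2-fold higher in hepatocytes, where 11.0% and 14.0% of genes were.

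**Figure D4:**
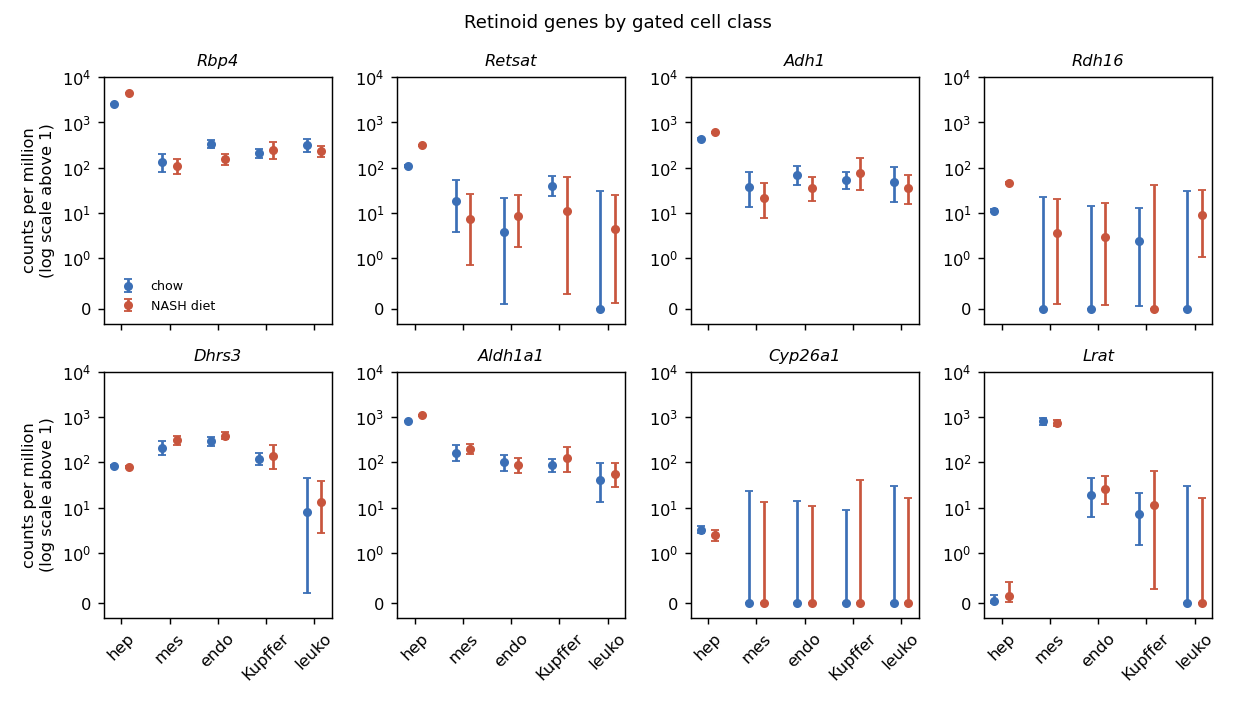
Level of each of the 8 genes in hepatocytes (hep), mesenchymal-marker (mes), endothelial (endo), Kupffer and other leukocyte (leuko) cells, in CPM on an axis that is linear up to 1 and logarithmic above, with exact Poisson 95% intervals. Lrat is at 798 and 741 CPM in mesenchymal-marker cells and at most 26.3 in every other class shown (endothelial and Kupffer cells here leave out those that also passed the mesenchymal gate). Dhrs3 is higher in endothelial cells, and in mesenchymal-marker cells, most of which also carried endothelial markers, than in hepatocytes.

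Lrat was at 798 CPM in mesenchymal-marker cells on chow, followed by 19.2 CPM in endothelial cells (5 UMIs), 7.11 CPM in Kupffer cells (3 UMIs), 0.0467 CPM in hepatocytes and 0 UMIs in other leukocytes. On the NASH diet the order was the same, at 741, 26.3, 11.2, 0.144 and 0. The intervals of endothelial and Kupffer cells overlap in both libraries, so their order is not resolved. These levels depend on the cells that passed 2 gates: with them, Lrat was at 47.1 CPM in Kupffer cells on chow (22 UMIs), above endothelial cells, and at 137 CPM in endothelial cells on the NASH diet (56 UMIs), both still below mesenchymal-marker cells. Dhrs3 was at 291 CPM in endothelial, 207 in mesenchymal-marker, 118 in Kupffer, 84.0 in hepatocyte and 8.16 in other leukocyte cells on chow, and at 383, 307, 135, 76.9 and 13.5 CPM on the NASH diet. Endothelial and mesenchymal-marker intervals overlap in both libraries.

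Hepatocyte gate genes were found in the other classes too, which gives the level that hepatocyte RNA would bring if it had the make-up of the gated hepatocytes. In mesenchymal-marker cells they stood at 3.54% of their hepatocyte level on chow and 1.99% on the NASH diet. Rbp4 scaled by these shares gives 89.1 and 89.3 CPM, beside 132 CPM (81.7 to 202) and 108 CPM (73.2 to 155) observed, so the Rbp4 counts in those cells are not told apart from carry-over. The scaling is rough. Hepatocyte-marker droplets of 500 to 1000 UMIs held Rbp4 at 4336 and 3460 CPM, against 2521 and 4499 in hepatocytes. In other leukocytes the scaled Rbp4 was 109 and 228 CPM, beside 318 CPM (226 to 435) and 234 CPM (175 to 307) observed. Dhrs3 scaled in the same way gives 2.97 and 1.53 CPM. Aldh1a1 so scaled gives 29.2 and 21.5 CPM, beside 163 and 199 CPM observed. The source of the Aldh1a1 UMIs was not tested. Adh1 gave 6 UMIs and 6 UMIs, Retsat 3 and 2, Rdh16 0 and 1, and Cyp26a1 0 and 0; a count of 0 in all 15 chow cells allows up to 18.9 CPM by the floor of 3 counts.

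In the mesenchymal-marker cells Lrat did not differ between diets beyond counting error. It gave 127 UMIs in 13 of 15 chow cells and 205 UMIs in 14 of 18 NASH-diet cells, a log2 ratio of -0.11 (-0.43 to 0.22). Per 10000 UMIs the median cell had 5.89 on chow and 5.51 on the NASH diet, and the highest cell 19.7 and 21.1. The cells without an Lrat UMI were the shallow ones, with at most 691 UMIs on chow and 1585 on the NASH diet. After thinning to 1000 UMIs, 5 of 13 chow and 6 of 16 NASH-diet cells had an Lrat UMI (38.5% and 37.5%), with 2 cells per library too shallow to thin, against 0 of 1627 and 0 of 957 hepatocytes thinned alike, which by the same floor allows up to 0.184% and 0.313% of cells with a UMI at this depth, and sets no limit on cells expressing Lrat.

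Among the members tested in these cells, 0 were at least 2-fold higher on the NASH diet and 1, Retsat with its 3 and 2 UMIs, at least 2-fold lower, where 11.7% of genes were higher and 13.7% lower by this much. Dhrs3 was at 207 CPM (143 to 291) on chow and 307 CPM (245 to 380) on the NASH diet; the log2 ratio was 0.57 (-0.03 to 1.19), from 33 and 85 UMIs. Aldh1a1 was at 163 and 199 CPM (0.28, -0.41 to 1.02). Both intervals include 0. The Aldh1a1 ratio depended on the averaging and the gate. As a mean over cells it was 2.13 (136 and 594 CPM), and with at least 1 UMI of each gate gene it was -0.08.

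The identity of these cells was checked on markers that left Lrat out. All 9 stellate markers (Reln, Des, Ngfr, Rgs5, Ecm1, Colec11, Vipr1, Pdgfrb and Hand2) were detected in both libraries, at 8021 CPM summed on chow and 5148 on the NASH diet, and 13 of 15 and 17 of 18 cells had at least 3 of them. Portal fibroblast markers gave 6 and 53 UMIs, smooth muscle markers 13 and 54, and mesothelial and cholangiocyte markers 0. Marker levels also differed between the diets. The gate gene Col3a1 gave 67 and 558 UMIs (log2 2.26), with 38.7% of the latter in 1 cell, while the gate gene Dcn was at log2 -0.29. The smooth muscle gene Tagln was at 1.30 (0.33 to 2.39) and the stellate gene Ngfr at -2.58 (-3.84 to -1.48). Diet ratios in these cells thus compare cells of unlike marker levels. Markers of other classes were also present. All 6 endothelial markers were detected, at 3866 and 3966 CPM summed, with at least 10 endothelial UMIs in 11 of 15 chow and 12 of 18 NASH-diet cells, and Kupffer markers were at 4582 and 557 CPM, with at least 10 UMIs in 8 and 4 cells. Most of the deeper barcodes thus carried markers of more than 1 class. The 7 dissociation stress genes summed to 1590 CPM in these cells on chow and 3644 on the NASH diet.

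Lrat and Dhrs3 differed in how they went with those endothelial UMIs, though on few counts. Of the Dhrs3 UMIs, 32 of 33 on chow and 83 of 85 on the NASH diet were in cells with at least 10 endothelial UMIs. Of the Lrat UMIs, 111 of 127 and 161 of 205 were in the same cells. Being mostly the deep ones, these cells held most of all UMIs of the class, so such counts largely follow depth. In the 4 chow and 6 NASH-diet cells under 10 endothelial UMIs, Lrat was at 1642 and 1650 CPM (16 and 44 UMIs), higher than over all the cells. Dhrs3 gave 1 and 2 UMIs in them (103 and 75.0 CPM, beside 84.0 and 76.9 CPM in hepatocytes). Those few cells were mostly shallow, with 1 over 5000 UMIs in each library. The deep chow cell had 7092 UMIs, of which 14 were Lrat, 1 Dhrs3 and 2 endothelial markers, and the deep NASH-diet cell had 20850 UMIs, of which 43 were Lrat, 1 Dhrs3 and 5 endothelial markers. The part of endothelial RNA in the Dhrs3 level was not tested, beyond the fact that endothelial cells held Dhrs3 at 291 and 383 CPM and Lrat at 19.2 and 26.3 CPM (mesenchymal-marker cells left out).

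**Figure D5:**
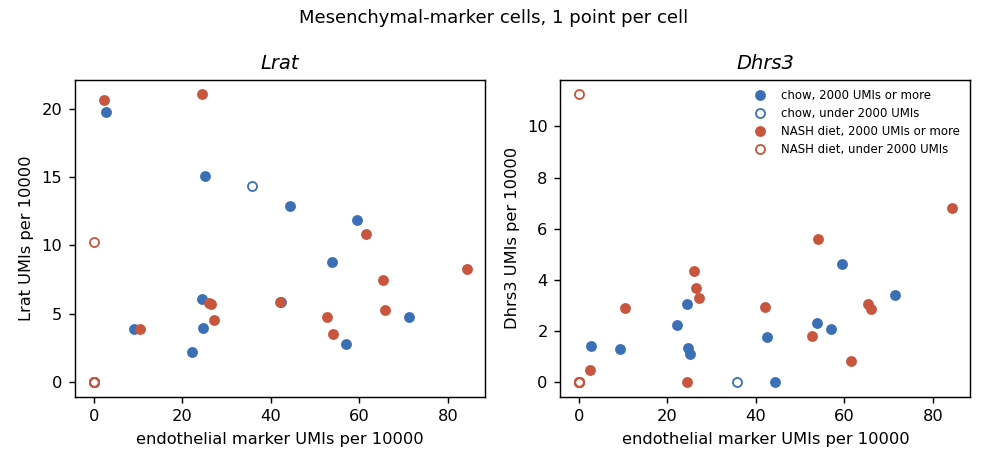
Lrat (left) and Dhrs3 (right) UMIs per 10000 against endothelial marker UMIs per 10000 in each mesenchymal-marker cell, 15 on chow and 18 on the NASH diet; open circles are cells under 2000 UMIs, several of which lie on top of each other at 0. The highest Lrat value on chow, 19.7, and a near-highest on the NASH diet, 20.6, are in the deep cells with 2 and 5 endothelial UMIs, and the open circle near 11 for Dhrs3 is a single UMI in a cell of 888 UMIs.

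Of the other retinoid genes, the 6 with most UMIs in mesenchymal-marker cells were Nr2f2, Lrp1, Tgm2, Rarres2, Lpl and Cyp26b1. Nr2f2 was at 528 and 799 CPM (0.60, 0.23 to 0.98), higher on the NASH diet as in hepatocytes. Lpl was at 270 and 253 CPM (-0.09, -0.66 to 0.49), a level that hepatocytes reached in neither library. Lrp1, Tgm2 and Rarres2 had log2 ratios of -0.52, -0.64 and -0.52. Cyp26b1, the retinoic acid hydroxylase of non-parenchymal cells, gave 13 UMIs in 6 chow cells and 78 UMIs in 10 NASH-diet cells (81.7 and 282 CPM, log2 1.79, 0.93 to 2.76), while Cyp26a1 gave 0 in both.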

How the data were processed

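The deposited values were UMI counts per gene and barcode, 1 matrix per library, with no normalization; per the submitters' processing notes Cell Ranger 3.1.0, Seurat and mm10 were used, while the file headers of the deposited count matrices name Cell Ranger 3.0.2. A deposited merged matrix was not used. The members and lists were chosen with earlier results of these data known.

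Barcodes with at least 200 genes, 500 UMIs and at most 30% mitochondrial UMIs were kept, which removed 3033 chow and 3512 NASH-diet barcodes. Marker gates replaced clusters, since clusters would have used the members. Hepatocytes needed 5000 UMIs, 3% of UMIs from the 6 gate genes and no other gate; other classes needed 3 UMIs of their genes and 1 per 1000 nuclear-encoded UMIs. Doublets were not called; the 5% of hepatocytes with the most UMIs were left out as an alternative. UMIs were summed over cells and divided by all UMIs (CPM), with exact Poisson intervals; ratios have exact conditional binomial intervals and shares exact Clopper-Pearson intervals, all at 95% and for counting error only. At least 2-fold was the call. Counts of 0 were set against a floor of 3 counts. All 8 members are named in each comparison; of the other lists, the 6 highest, the 6 lowest and all past 2-fold in hepatocytes, and the 6 with most UMIs in mesenchymal-marker cells. Some genes are not reported here, and the counts for the lists leave them out. In simulated counts for the hepatocyte comparison (7824 genes), 100% of 200 genes changed 3-fold were called in the right direction, with 0 false calls. The simulation held counting noise only, with no variation between cells, mice or libraries. It therefore checks the arithmetic and cannot tell how many 2-fold calls between these libraries are false. Python 3.11.15, numpy 2.4.6, scipy 1.17.1 and pandas 2.3.3 were used.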

Additional observations from a re-analysis of the deposited data

How the results depend on the processing

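Hepatocyte results were recomputed under other UMI minimums, mitochondrial limits, marker shares, denominators, pseudocounts, averages, depths, centring and filters. The count of 2 members at least 2-fold apart between diets stayed at 2 or 3 in 15 of 16 settings and was 1 (Rdh16) in droplets under 5000 UMIs, a setting chosen, like the mitochondrial bands and the endothelial and Kupffer limits, after seeing the data. The sign of each ratio held, for all members but Lrat, in all these settings (but not in 4 narrower sets of cells: Aldh1a1, Adh1 and Dhrs3 turned under 10% mitochondrial UMIs, Dhrs3 and Cyp26a1 at 40000 UMIs or more, Retsat and Rbp4 in droplets of 500 to 1000 UMIs, and Dhrs3, to 0.03, in droplets with 1% to 3% marker UMIs), from 0.78 to 1.82 for Retsat and from 1.26 to 2.66 for Rdh16. At a mitochondrial limit of 20%, which kept 1111 chow and 249 NASH-diet hepatocytes, Retsat was at 0.94 and Rbp4 at 1.20. The 6 other retinoid genes past 2-fold became 10 at that limit and 12 with no filter on low values. Over all genes, 271 were higher and 191 lower; these were 582 and 246 at the 20% limit, 207 and 254 after centring and 2757 and 714 with no filter, so the share higher went from 58.7% to 70.3%, 44.9% and 79.4%, and in the 10% to 20% mitochondrial band it was 68.5%. With a pseudocount of 5 CPM they were 167 and 139. The 2 members past 2-fold between zones became 0 in each library with a hepatocyte marker share of 5%, which removes most pericentral cells. In mesenchymal-marker cells, leaving out those with at least 10 endothelial UMIs took Dhrs3 from 0.57 to -0.45 and Lrat from -0.11 to 0.01. The Dhrs3 value rests on 1 and 2 UMIs, too few to give a direction. The Lrat value rests on 16 and 44 UMIs, of which 14 and 43 were in 1 cell per library. Without a mitochondrial limit Rbp4 went from -0.28 to 0.94, and as a mean over cells Aldh1a1 went from 0.28 to 2.13. No paired analysis was possible because each diet has 1 library, and for the same reason no library could be left out. Depth limits Lrat and Cyp26a1 in hepatocytes and every member but Lrat in the 33 mesenchymal-marker cells.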
